A study of Mus musculus with 6 samples.

Results

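Collagens are the main structural proteins of the extracellular matrix, and the data described here are the transcripts of their chains in wild-type mouse embryonic fibroblasts (MEFs) under low oxygen. The chain genes were taken as every row of the deposited gene table whose symbol has the form Col, a number, a and a number. This gave 44 genes out of 51482 measurements in the table (47 rows, because Col3a1, Col7a1 and Col20a1 are each listed under more than 1 Ensembl identifier with the same values). All 6 samples were SV40-immortalised WT cells, a line made able to keep dividing by the viral large T antigen. They are cultured fibroblasts and not matrix-embedded tissue, and their division in either group was not examined here. The 3 normoxia samples were kept at 21% oxygen and the 3 hypoxia samples at 0.5% oxygen, for 16 h in both groups, and neither group carried a further treatment or allele. The sources used here do not say whether the line is 1 clone.

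Each gene has 1 FPKM (fragments scaled to the length of the transcript and the size of the library) for each condition, since the authors had merged their 3 replicates. No SD, value of a single sample or depth can therefore be given. The words rose and fell are used of a gene when its q-value from Cuffdiff in the authors' deposited table was below 0.05, and folds are ratios of the group FPKM. FPKM is scaled to transcript length, so levels of different chains can be set side by side. In bulk RNA, fewer cells of a type and less RNA per cell cannot be told apart.

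A collagen molecule is a triple helix of 3 chains, alike or different, that is folded and hydroxylated on proline and lysine in the endoplasmic reticulum before secretion. The prolyl and lysyl hydroxylases that do this need molecular oxygen, and several of their genes are switched on by the hypoxia-inducible factors (HIFs). Fibrillar collagens (types I, II, III, V, XI, XXIV and XXVII) build the fibres that carry tension, and fibroblasts produce several of them. Type IV forms the network of basement membranes, type VI forms beaded microfibrils around cells, and the FACITs (fibril-associated collagens with interrupted triple helices) decorate the surface of fibrils.

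The fibroblast label was checked against marker genes. Of 11 measured fibroblast markers 9 were tested, with Lgals1 at 2681 FPKM in normoxia against 2783 in hypoxia and Vim at 883 and 2249 FPKM. Of the 9, Vim and Twist1 rose and 4 fell: Prrx1 from 16.4 to 10.9 FPKM, Pdgfrb from 10.9 to 6.58 FPKM, Thy1 from 8.65 to 5.72 FPKM and Dcn from 28.8 to 24.0 FPKM. That is 66.7% called, 22.2% higher and 44.4% lower, against 57.9%, 28.9% and 29.0% of all tested measurements. Lum and Fap stood at or below 0.0688 FPKM in both groups. Epithelial keratin transcripts were present as well: Krt18 rose from 313 to 443 FPKM, while Krt8 fell from 28.3 to 10.1 FPKM and Cdh1 from 5.93 to 3.76 FPKM. Krt14 also fell, from 15.9 to 10.8 FPKM, and Epcam, at 5.97 and 5.22 FPKM, was not called. Thus 1 of 5 tested epithelial markers rose and 3 fell, 20% and 60%, against the same shares of all tested measurements. The 8 epithelial markers summed to 369 FPKM in normoxia against 473 in hypoxia, most of it Krt18, with Krt5 at 0 in normoxia. The 6 endothelial markers all lay at or below 0.0906 FPKM. Of 7 haematopoietic markers Adgre1, Cd3e and Itgam were listed at 0 in both groups, and Cd68, the only one tested, rose from 1.32 to 2.27 FPKM. The part of these marker levels in the collagen values was not tested.

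Hypoxia was accompanied by changes in both directions among the collagen chains. Of 25 tested chains 14 were called (56.0%), 9 higher and 5 lower, and 11 were not called. Among all 14575 tested measurements the authors' deposited table calls 57.9%, with 28.9% higher and 29.0% lower, so the share of chains called was close to that background. Called changes were 2-fold or larger in 5 chains, which is 20.0% of those tested against 18.9% of all tested measurements. Col12a1, Col11a1, Col6a3 and Col16a1 rose by that much (4 chains, where the background is 9.03%), and Col8a2 fell by that much (1 chain, where the background is 9.87%). On the scale of log2(FPKM + 1), the 21 chains whose FPKM averaged 1 or more over the 2 groups had a median log2 fold change of -0.02, beside 0.00 for the 12127 tested measurements past the same limit.

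**Figure D1:**
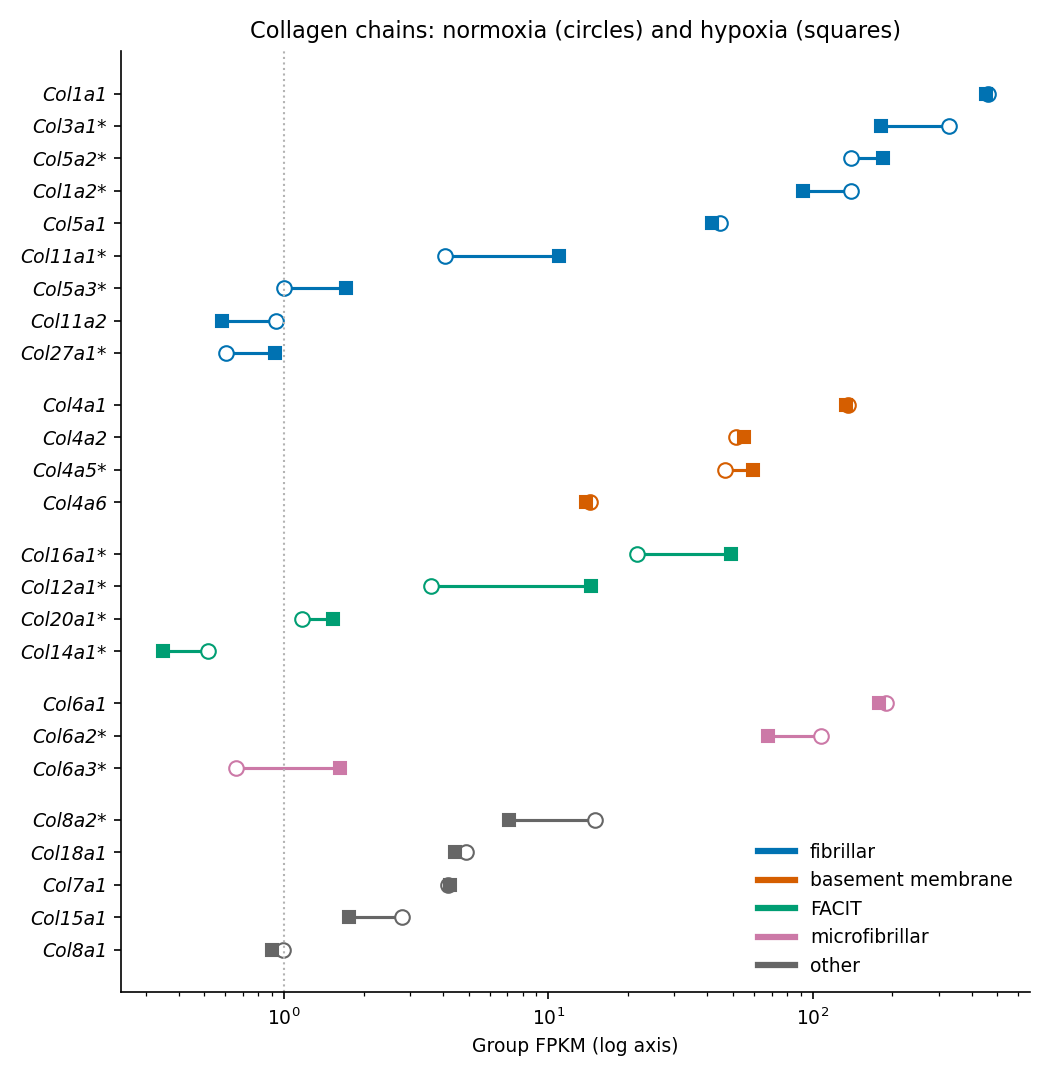
Group FPKM on a log axis for the 25 tested collagen chains in normoxia (open circles) and hypoxia (filled squares), arranged by class, with an asterisk at called chains and a dotted line at 1 FPKM. Col1a1 stays between 451 and 463 FPKM, Col3a1 and Col1a2 move to the left, and Col12a1 and Col11a1 move to the right.

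Fibroblast transcripts of the fibrillar class were the most abundant. Col1a1 (ENSMUSG00000001506, chromosome 11, 94936224 to 94953042 on GRCm38), the gene of the major chain of type I collagen, stood at 463 FPKM under normoxia against 451 FPKM under hypoxia, with no call in the authors' deposited table (q = 0.800). Its level ranked 151st in normoxia and 181st in hypoxia among the 14575 tested measurements. Col1a2 (ENSMUSG00000029661, chromosome 6, 4504814 to 4541544), the gene of the partner chain in the type I molecule, fell from 140 to 91.7 FPKM (1.53-fold; q = 0.000139 in the authors' deposited table). Col3a1 (ENSMUSG00000026043, chromosome 1, 45311538 to 45349706) encodes type III collagen, which forms mixed fibrils with type I and is made of 1 kind of chain. It fell from 328 to 182 FPKM (1.80-fold), the largest loss of FPKM in the family. Summed over Col1a1, Col1a2 and Col3a1, the level went from 930.2 to 725 FPKM, and most of that difference came from Col3a1.

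Of the type V and type XI chains, which sit inside fibrils and set their diameter, Col5a2, Col5a3 and Col11a1 rose, and Col5a1 and Col11a2 were not called. Col5a2 (ENSMUSG00000026042, chromosome 1, 45374321 to 45503282) rose from 140 to 185 FPKM (1.32-fold; q = 0.000269 in the authors' deposited table). Col5a1, whose product joins that of Col5a2 in the common form of the type V molecule, was at 44.8 and 41.6 FPKM and was not called (q = 0.329 in the authors' deposited table). Col5a3, the gene of a chain with a more restricted distribution, rose 1.72-fold at a low level, from 0.999 to 1.71 FPKM. Col11a1 (ENSMUSG00000027966, chromosome 3, 114030540 to 114220718), the gene of a type XI chain best known from cartilage, rose from 4.06 to 11.0 FPKM (2.71-fold; q = 0.000139 in the authors' deposited table). Its partner Col11a2 stood at 0.929 and 0.580 FPKM and was not called (q = 0.214 in the authors' deposited table). The fibrillar type XXVII gene Col27a1 rose from 0.602 to 0.922 FPKM (1.53-fold), below 1 FPKM in both groups.

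Across the fibrillar class 4 of 9 tested chains rose, 2 fell and 3 were not called. Among all tested measurements 28.9% were higher and 29.0% lower. The summed FPKM of the class was 1122 in normoxia against 966 in hypoxia (0.861 of the normoxia value). The 7 fibrillar chains averaging at least 1 FPKM had a median log2 fold change of -0.04, with a range from -0.84 for Col3a1 to 1.25 for Col11a1 on the scale of log2(FPKM + 1). Col2a1, the gene of the cartilage fibril chain, and Col24a1 were at or below 0.262 FPKM and were not tested. Of the chondrocyte markers beside them, Hapln1, Cnmd and Matn1 were listed at 0 in both groups, Acan was at or below 0.0447 FPKM, and Sox9 rose from 1.04 to 2.00 FPKM. Among the osteoblast markers Dmp1 and Ibsp were listed at 0 in both groups, Runx2 rose from 6.24 to 12.7 FPKM and Alpl fell from 3.48 to 0.563 FPKM. The part of these markers in the type I and XI values was not tested.

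**Figure D2:**
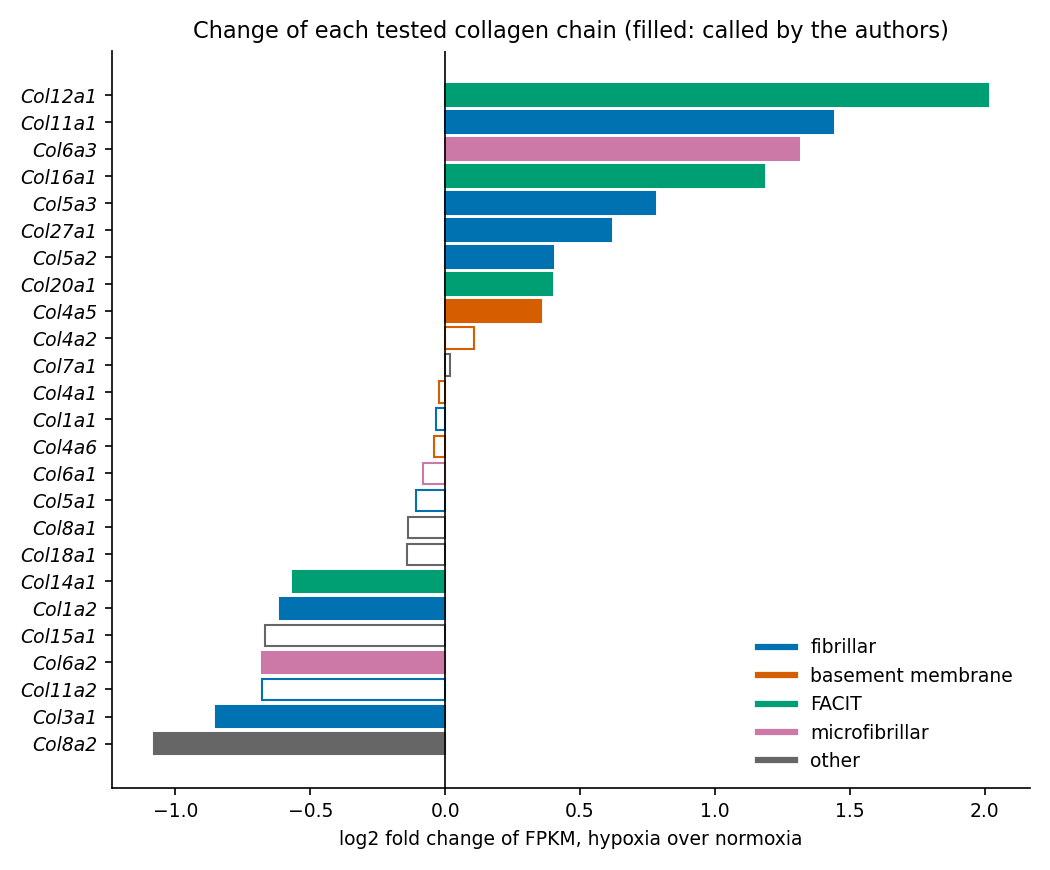
Authors' log2 fold change of group FPKM, hypoxia over normoxia, for each of the 25 tested collagen chains in order of size and coloured by class. Filled bars are called at q below 0.05 and open bars are not. Col12a1 is highest at 2.01 and Col8a2 lowest at -1.08.

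FACIT chains had 3 rises and 1 fall among 4 tested genes, and no tested FACIT chain was left uncalled. Of all tested measurements 57.9% were called, 28.9% higher and 29.0% lower, and 4 genes are too few to set against these shares. Col12a1 (ENSMUSG00000032332, chromosome 9, 79598991 to 79718831), the gene of a long fibril-surface collagen found where tissue bears load, rose from 3.60 to 14.5 FPKM (4.04-fold; q = 0.000139 in the authors' deposited table). This was the largest fold among the tested chains. Col16a1 (ENSMUSG00000040690, chromosome 4, 130047840 to 130099283), a minor fibril-associated type, rose from 21.6 to 48.9 FPKM (2.27-fold). Col20a1 (ENSMUSG00000016356, chromosome 2, 180986535 to 181018363) rose from 1.17 to 1.54 FPKM (1.32-fold; q = 0.0168 in the authors' deposited table), and its measurement is shared with a sense-overlapping transcript listed under the same symbol. Col14a1 (ENSMUSG00000022371, chromosome 15, 55307750 to 55520803), the gene of a FACIT that binds decorin and regulates fibril growth, fell from 0.514 to 0.348 FPKM (q = 0.0311 in the authors' deposited table). The sum of the class went from 27.1 to 65.5 FPKM, of which Col12a1 and Col16a1 made up nearly all. The other 5 FACIT genes (Col9a1, Col9a2, Col9a3, Col19a1 and Col22a1) were at or below 0.243 FPKM and were not tested, and only 3 of 9 genes of the class had a mean of at least 1 FPKM.

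Type IV chains, the scaffold of basement membranes, moved little. Col4a1 and Col4a2, whose products form the molecule present in nearly all basement membranes, were at 136 and 51.3 FPKM in normoxia, against 134 and 55.2 FPKM in hypoxia. Neither was called in the authors' deposited table (q = 0.930 for Col4a1 and 0.602 for Col4a2). Col4a5 (ENSMUSG00000031274, chromosome X, 141475385 to 141689234) rose from 46.6 to 59.6 FPKM (1.28-fold; q = 0.00243 in the authors' deposited table). Col4a6, which lies beside it and whose product assembles with that of Col4a5, stood at 14.3 and 13.9 FPKM (q = 0.723 in the authors' deposited table). Col4a3 and Col4a4, whose products combine with that of Col4a5 in kidney and lung, were at or below 0.0567 FPKM and were not tested. Of 4 tested chains 1 was higher and none lower, beside 28.9% and 29.0% of all tested measurements. The summed type IV level was 248 FPKM under normoxia and 263 FPKM under hypoxia, a ratio of 1.06.

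The chains of type VI collagen, whose molecule is assembled from the products of Col6a1, Col6a2 and a larger chain, split 3 ways. Col6a1 (ENSMUSG00000001119, chromosome 10, 76708792 to 76726168) stood at 189 and 178 FPKM and was not called (q = 0.466 in the authors' deposited table). Col6a2 (ENSMUSG00000020241, chromosome 10, 76595762 to 76623630) fell from 108 to 67.5 FPKM (1.60-fold). Col6a3 (ENSMUSG00000048126, chromosome 1, 90765923 to 90843971), the gene of the large chain that joins them, rose from 0.658 to 1.63 FPKM (2.48-fold; q = 0.000139 in the authors' deposited table). Even after its rise Col6a3 lay far below the other two. Its possible substitutes Col6a4, Col6a5 and Col6a6 were at or below 0.0283 FPKM and were not tested. The type VI sum was 298 FPKM in normoxia against 248 in hypoxia.

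Of the 12 chains outside these classes 5 were tested, and 1 of those was called, beside 57.9% of all tested measurements. Col8a2 (ENSMUSG00000056174, chromosome 4, 126286793 to 126314330), the gene of a short-chain collagen that forms hexagonal networks in the cornea and vessel wall, fell from 15.0 to 7.08 FPKM (2.11-fold; q = 0.000139 in the authors' deposited table). Its partner Col8a1 stood at 0.992 and 0.902 FPKM (q = 0.411 in the authors' deposited table). The multiplexins, basement membrane zone collagens whose C-terminal fragments include endostatin, were at 2.79 and 1.76 FPKM for Col15a1 (q = 0.0788 in the authors' deposited table) and at 4.88 and 4.42 FPKM for Col18a1 (q = 0.648). Col7a1, the gene of the anchoring fibril chain of skin, was at 4.17 and 4.23 FPKM (q = 0.961 in the authors' deposited table). The transmembrane collagen genes Col13a1, Col17a1, Col23a1 and Col25a1 were at or below 0.0556 FPKM, and so were Col10a1, Col26a1 and Col28a1.

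In all, 23 of the 44 chains were below 1 FPKM in both groups. The 4 of these that were tested were Col8a1, at 0.992 FPKM in normoxia just under that limit, Col11a2, Col27a1 and Col14a1, and Col5a3, at 0.999 and 1.71 FPKM, lay just above it. The other 19 were not tested by the authors, and the highest of their values was the 0.262 FPKM of Col2a1 in normoxia. Col9a1, Col19a1 and Col6a5 were listed at 0 in both groups and a further 5 chains (Col6a4, Col13a1, Col22a1, Col25a1 and Col26a1) in 1 group. A value of 0 in this table can be a failed estimate, since the mitochondrial genes Ndufs3 and Ptpmt1 are also listed at 0 in both groups.

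The make-up of the collagen transcripts differed between the groups along with their sum. The 44 chains summed to 1723 FPKM in normoxia against 1560.2 in hypoxia (0.906 of the normoxia value), which was 0.315% and 0.244% of all FPKM in the table. The sum of all FPKM was itself 547351 in normoxia and 639357 in hypoxia, so the lower share also reflects this larger total. Col1a1 made up 26.8% of the collagen sum in normoxia and 28.9% in hypoxia. Over the same groups the share of Col3a1 went from 19.0% to 11.7% and that of Col5a2 from 8.13% to 11.9%, so that in hypoxia Col5a2 stood beside Col3a1, at 185 and 182 FPKM without an error on either. FACIT chains went from 1.57% to 4.20% of the sum. The 6 chains with a mean of at least 100 FPKM included 1 that rose, 2 that fell and 3 that were not called, and among the 19 other tested chains 8 rose and 3 fell. Of all 1005 tested measurements at the higher abundance 44.3% rose, while 20.7% fell. Of the 13570 less abundant ones 27.8% rose, while 29.6% fell.

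**Figure D3:**
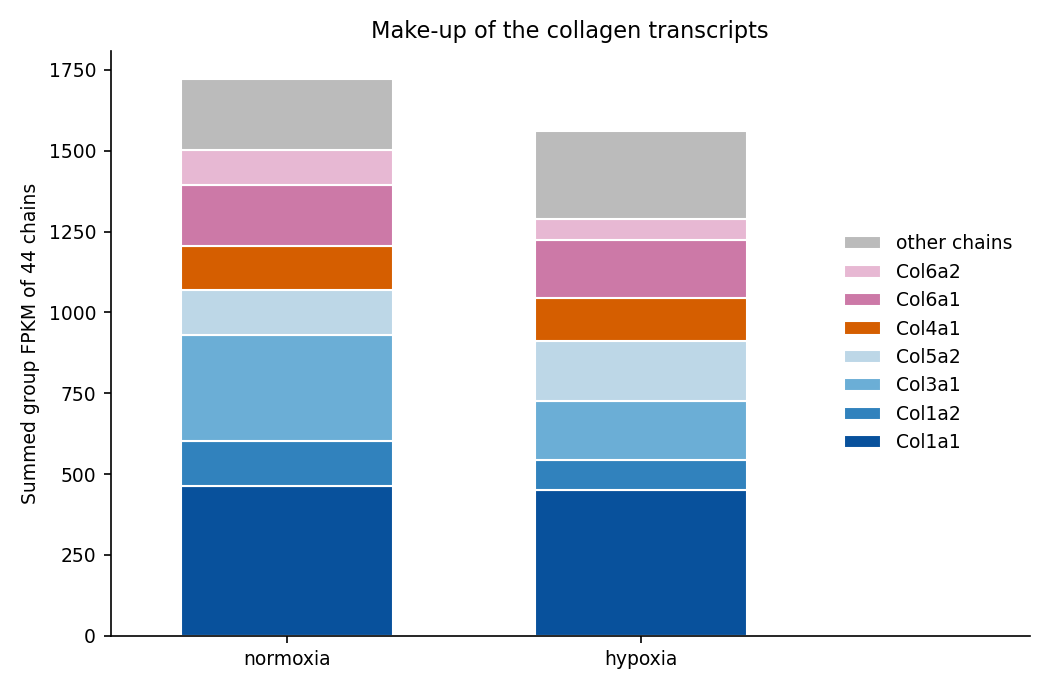
Summed group FPKM of the 44 collagen chains in normoxia and hypoxia as stacked bars, with the 7 most abundant chains drawn apart and the rest in grey. The bars reach 1723 and 1560.2 FPKM, and the Col3a1 layer narrows from 328 to 182 FPKM.

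Ratios between chains of 1 collagen type are of interest because the molecules have largely fixed chain make-ups. The ratio of Col1a1 to Col1a2 FPKM was 3.30 in normoxia and 4.92 in hypoxia, and that of Col6a1 to Col6a2 was 1.75 and 2.64. In both pairs the first gene was not called and the second fell. The ratio of Col4a1 to Col4a2 was 2.65 in normoxia and 2.42 in hypoxia, and neither gene was called. For Col4a5 to Col4a6 it went from 3.25 to 4.29. The level of Col6a1 was 287 times that of Col6a3 in normoxia and 109 times in hypoxia. These ratios carry no error, because the table holds 1 value per group, and the difference between the ratios was not tested.

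**Figure D4:**
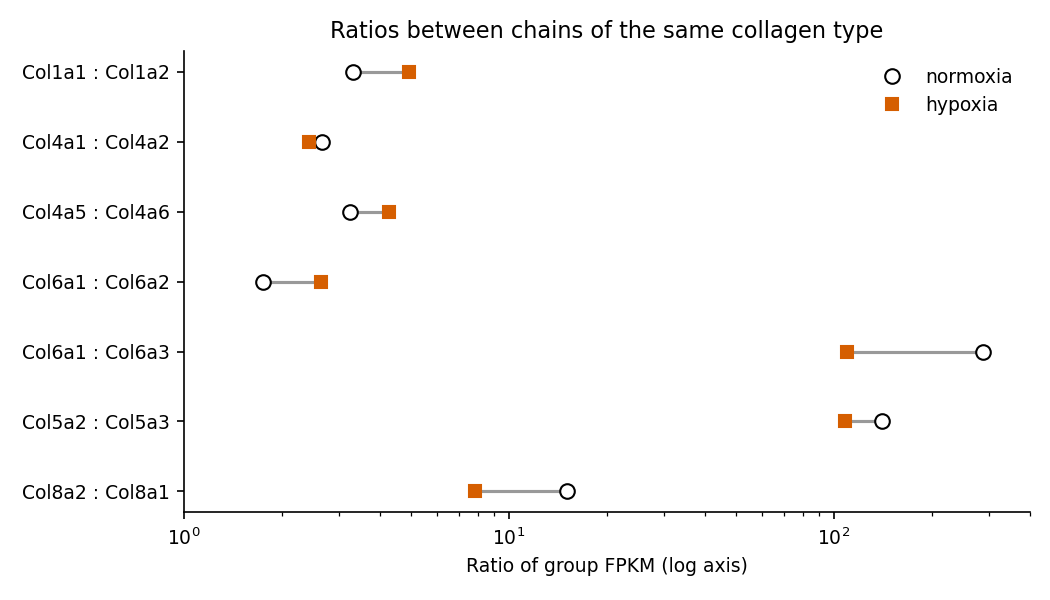
Ratio of group FPKM between chains of the same collagen type, on a log axis, in normoxia (open circles) and hypoxia (filled squares). The ratio of Col1a1 to Col1a2 moves from 3.30 to 4.92, that of Col4a1 to Col4a2 stays between 2.42 and 2.65, and that of Col6a1 to Col6a3 drops from 287 to 109.

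Several chain genes lie next to each other, and neighbours did not always share a direction. Col3a1 and Col5a2 face each other tail to tail on chromosome 1 with 24614 bp and no protein-coding gene between them, and Col3a1 fell while Col5a2 rose. Col6a2 and Col6a1 lie on the same strand of chromosome 10 with 85161 bp between them. The former fell and the latter was not called. Col4a1 and Col4a2 are arranged head to head on chromosome 8 and their annotated 5′ ends overlap by 22 bp, and neither was called. Col4a6 and Col4a5 are also head to head, 1308 bp apart on the X chromosome, and of these Col4a5 rose. Col9a1 and Col19a1, Col4a4 and Col4a3, and the cluster of Col6a6, Col6a5 and Col6a4 were neighbours of which no member was tested. The 44 genes lie on 15 chromosomes, and 18 of them overlap an annotated gene on the opposite strand, including Col18a1 (with Slc19a1) and Col10a1 (with Nt5dc1). The sources used here do not say whether the authors counted by strand.

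In their longest coding transcript the chain genes had from 3 exons (Col10a1) to 119 exons (Col7a1), with a median of 48, a hallmark of a gene family in which short exons encode repeats of the triple helix. Transcript lengths ran from 2624 to 11511 bases, the latter for Col12a1. Median transcript length was 6625 bases for the 9 chains that rose, 5348 bases for the 5 that fell and 5930 bases for the 11 that were not called. The median GC content of the transcripts was 54.5%, 55.7% and 58.0% in the same order. The ranges of length and of GC content overlapped between these sets.

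Promoter sequences from RefSeq (GRCm38.p6) were matched by symbol for 35 of the 44 chains, in 38 windows. The 250 bases before the start were searched on both strands for the core HIF element (ACGTG or GCGTG), the CCAAT box (CCAAT) and the TATA box (TATAAA). No stretch printed here holds more than 1 match. The HIF core was found in 11 of the 38 windows (28.9%) against 38.6% of all 32851 windows. CCAAT was found in 34.2% against 33.8%, and TATAAA in 13.2% against 12.4%. Of the chains that rose, 2 of 7 windows held the HIF core (Col5a3 and Col16a1), and of those that fell, 2 of 5 (Col1a2 and Col6a2). The search says only that these letters are or are not in this window. The 150 bases before the start are printed for 4 chains that reached 5 FPKM in either condition, 2 that rose and 2 that fell. These moved most in opposite directions among those with a printable window. Printable means that the stretch holds little annotated untranslated sequence. Col12a1, with the largest fold, had no window. The stretch of Col1a2, which fell, is not printed and holds HIF core matches beginning 131 and 87 bases before the start. Capitals mark the CCAAT and TATAAA matches, on either strand.
Col11a1 (rose; chr3:114030390-114030539, plus strand): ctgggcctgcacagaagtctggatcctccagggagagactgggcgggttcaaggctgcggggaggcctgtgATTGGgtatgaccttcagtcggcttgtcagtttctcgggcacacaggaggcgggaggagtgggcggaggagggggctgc
Col16a1 (rose; chr4:130047690-130047839, plus strand): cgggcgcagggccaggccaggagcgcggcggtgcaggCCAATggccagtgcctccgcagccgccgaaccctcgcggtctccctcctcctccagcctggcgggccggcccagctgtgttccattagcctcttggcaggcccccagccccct
Col3a1 (fell; chr1:45311388-45311537, plus strand): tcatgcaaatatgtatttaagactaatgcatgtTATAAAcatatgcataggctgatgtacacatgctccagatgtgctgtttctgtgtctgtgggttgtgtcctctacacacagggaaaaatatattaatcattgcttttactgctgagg
Col8a2 (fell; chr4:126286644-126286793, plus strand): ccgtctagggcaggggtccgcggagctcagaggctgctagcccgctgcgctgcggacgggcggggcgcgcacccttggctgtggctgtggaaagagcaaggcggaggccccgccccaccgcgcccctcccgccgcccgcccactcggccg

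These 4 stretches differ in base composition. The Col3a1 stretch has a GC content of 37.3% and carries a TATAAA beginning 117 bases before the start, whereas the Col8a2 stretch, also of a chain that fell, has 78.0% GC and none of the motifs. The Col11a1 and Col16a1 stretches have 64.7% and 74.7% GC and a CCAAT match each, on the minus and the plus strand, beginning 79 and 113 bases before the start. The HIF core of Col16a1 lies further out, at 219 bases before the start. None of these matches was tested for binding.

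Rises outnumbered falls among the enzymes that modify the chains, and 53.8% of the hydroxylation genes rose against 28.9% of all tested measurements. Among 13 prolyl and lysyl hydroxylation genes, all of them tested, there were 7 rises, 3 falls and 3 without a call, with a median log2 fold change of 0.36 on the scale of log2(FPKM + 1) beside 0.00 for all tested measurements. The largest rises were those of P4ha2 (44.8 to 313 FPKM) and P4ha1 (100 to 417 FPKM), the catalytic subunits of collagen prolyl 4-hydroxylase, Plod2, a lysyl hydroxylase (53.2 to 208 FPKM), and P4hb, the shared beta subunit (503 to 1344 FPKM). The catalytic subunit gene P4ha3 fell from 6.79 to 3.43 FPKM and P3h4, of the prolyl 3-hydroxylase family, from 61.7 to 37.7 FPKM. The lysyl oxidases, which cross-link secreted collagen, were divided. Of the 5 tested 40% rose and 40% fell, beside 28.9% and 29.0% of all tested measurements. Lox rose 2.21-fold and Loxl2 2.86-fold, Loxl1 fell 3.42-fold and Loxl4 1.51-fold, and Loxl3, at 15.1 and 11.4 FPKM, was not called. The galactosyltransferase gene Colgalt1 was at 70.4 and 70.3 FPKM and was not called (q = 0.988 in the authors' deposited table).

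For genes of folding, export and trimming of procollagen the share of calls was near that of all tested measurements. In the list of chaperones and secretion 2 of 15 tested measurements rose, 6 fell and 7 were not called. Thus 53.3% were called against 57.9% of all, and 40.0% fell against 29.0% (median log2 fold change of FPKM + 1, -0.19). Mia3 counts here with 2 measurements. The larger, at 75.1 and 56.6 FPKM, was not called, and the smaller fell from 12.7 to 9.85 FPKM. Sec13, a coat protein of vesicles that leave the endoplasmic reticulum, fell 1.64-fold and Creb3l1, a transcription factor for collagen and secretory genes, 1.36-fold. Fkbp7, a prolyl isomerase, and Sec24d, a cargo-selecting coat protein, rose 1.40-fold and 1.31-fold. Among 5 tested genes of propeptide processing the proteinase gene Adamts14 and the enhancer gene Pcolce2 fell 2.15-fold and 2.11-fold, Adamts3 rose 1.40-fold and 2 were not called (60.0% called). Pcolce shares its measurement with the overlapping gene Fbxo24 and was not counted. In proline synthesis and turnover 4 of 6 tested genes fell and 1 rose. That is 83.3% called and 66.7% lower, against 57.9% and 29.0% of all tested measurements. Pycr1 and Pycrl, reductase genes for the last step of proline synthesis, fell 1.52-fold and 1.45-fold, and Aldh18a1, for the first step, rose 1.27-fold.

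Genes that organise or bind fibrils included several large falls. Of 13 tested fibril-associated genes 8 fell, 2 rose and 3 had no call, and 61.5% fell against 29.0% of all tested measurements. The median log2 fold change was -0.81 on the scale of log2(FPKM + 1), but -0.25 both without the limit on low values and past a mean of 5 FPKM. Ogn, the gene of the small leucine-rich proteoglycan osteoglycin, fell from 34.4 to 6.30 FPKM, and its relatives Fmod and Aspn fell 5.32-fold and 5.25-fold from 3.20 and 2.79 FPKM. Prelp, of the same proteoglycan family, fell from 0.714 to 0.0401 FPKM. Bgn, the gene of biglycan, and Fn1, the gene of fibronectin, on which fibroblasts assemble collagen, rose from 217 to 347 FPKM and from 448 to 649 FPKM. Among 6 tested collagen receptor genes Itga11, an integrin subunit for fibrillar collagen, rose from 0.775 to 1.53 FPKM, the uptake receptor gene Mrc2 rose from 20.7 to 38.0 FPKM, and 4 were not called. That is 33.3% called, against 57.9% of all tested measurements. In collagen degradation, a list of proteinases and of their inhibitors (the Timp genes), 5 of 10 tested genes fell and 1 rose. Thus 60% were called and 50% were lower, against 57.9% and 29.0% of all tested measurements. These shares pool genes of opposite role. Of the tested inhibitor genes Timp2 fell, and Timp1 and Timp3 were not called. Mmp14, the gene of a membrane-bound collagenase, fell from 93.3 to 43.6 FPKM, Timp2, whose product works with it, from 113 to 54.3 FPKM, and Mmp15 from 0.554 to 0.0757 FPKM. The collagenase gene Mmp13 rose from 0.395 to 0.833 FPKM.

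**Figure D5:**
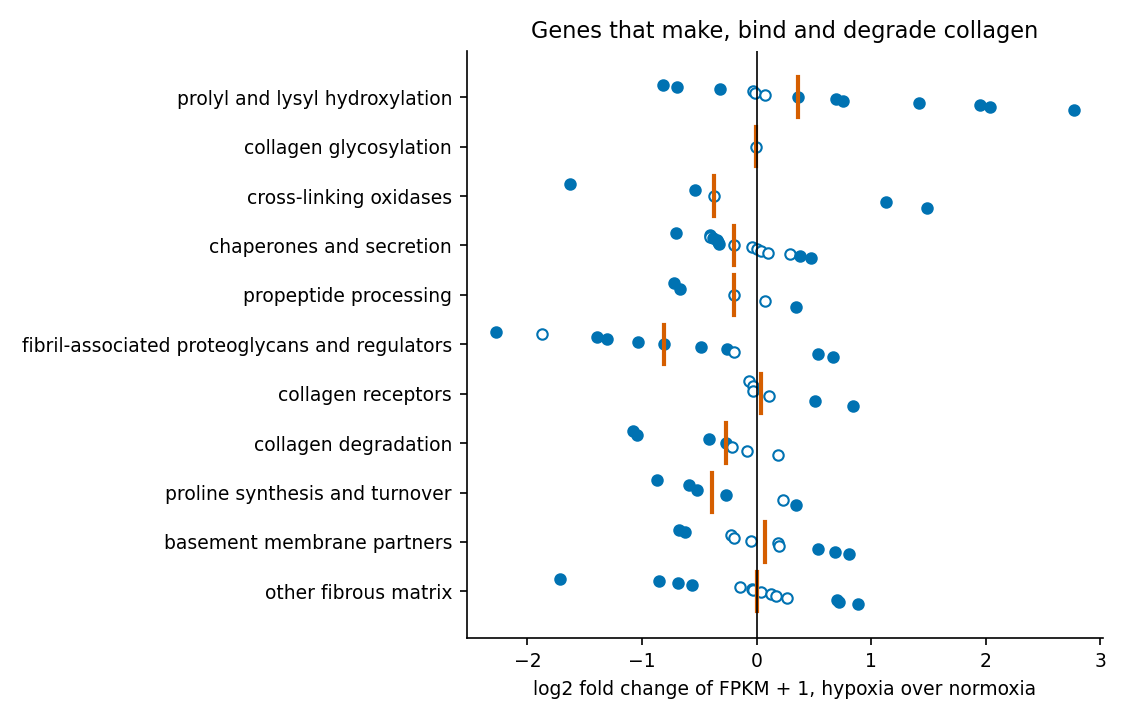
Log2 fold change of FPKM + 1, hypoxia over normoxia, for genes averaging at least 1 FPKM in 11 lists named by their role (points, filled for called genes), with the median of each list as a vertical orange line. The median of prolyl and lysyl hydroxylation lies at 0.36 and that of fibril-associated proteoglycans and regulators at -0.81.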

How the data were processed

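RNA of 6 samples (3 normoxia, 3 hypoxia) was sequenced from stranded poly-A libraries, per the labels' protocols. The submitters' processing notes list Cufflinks, Cuffdiff 2.2.1, HISAT2 2.1.0 and StringTie 1.3.4d, and the build GRCm38. How libraries were scaled is not stated in the sources used here. The authors deposited 1 table with an FPKM per gene and group, the log2 fold change, a test statistic (a score, not used) and p-values and q-values, per the file headers. The replicates had been combined, so the depth is unknown and no test between samples was run. The q-values are those of the authors' deposited table, whose smallest q, 0.000139, is shared by 5148 tested measurements.

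Rows repeating 1 measurement were counted once (53207 rows, 51482 measurements). Sums, ratios, medians of log2(FPKM + 1) past a mean of 1 FPKM, motif counts and annotation (GENCODE M21) were computed with Python 3.11.15, pandas 2.3.3 and NumPy 2.4.6. Only the computing of log2 fold changes, of their median and of the median of ratios was tested on simulated data. Named were chains called or with at least 1 FPKM, and per list up to 4 called genes with the largest change and up to 2 against the majority. The members and lists were chosen with earlier results of these data known. Some genes that this rule takes are not reported here. Symbols without a row of their own were not analysed here.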

Additional observations from a re-analysis of the deposited data

How the results depend on the processing

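The counts of chains called stayed within 1.5 times the values above at q below 0.01 and with a mean of at least 1 FPKM required. With a change of at least 2-fold required, 5 chains were called, 4 higher and 1 lower. No measurement with several gene names held a chain. Rescaling by the median of ratios (factor 0.991, or -0.0126 on the log2 scale) moved no median by more than 0.1 on the log2 scale. A factor this near 1 could hardly do so. Ratios between 2 chains of the same group cannot change under it, so this rescaling is no check on either. Counting multiplexins with the basement membrane class moved neither its count nor its median beyond these limits. At the main settings the median log2 fold change was 1.15 for FACIT (3 chains), -0.08 for microfibrillar and -0.29 for other chains. It was -0.20 for propeptide processing, -0.27 for degradation, -0.39 for proline synthesis and 0.0053 for other fibrous matrix. With a pseudocount of 0.1 FPKM the median log2 fold change was -0.39 for the other chains and -1.07 for the fibril-associated genes. Without the filter on low values, the medians were 0.00 for FACIT chains, 0.0018 for the other chains, 0.00 for propeptide processing, -0.25 for fibril-associated genes, -0.083 for degradation and -0.13 for proline synthesis. Past a mean of 5 FPKM, they were 1.45 for FACIT, -0.38 for microfibrillar and -0.98 for other chains, 0.53 for hydroxylation, -0.062 for propeptide processing, -0.25 for fibril-associated genes and 0.13 for other fibrous matrix. These filters change which genes enter each median. No paired analysis was possible because the table holds 1 value per group, and for the same reason no replicate could be left out.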

Other observations

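Among partners of type IV collagen in basement membranes 46.2% were called, beside 57.9% of all tested measurements. Rises numbered 4 and falls 2 among 13 tested genes (30.8% higher against 28.9% of all), and 7 had no call, with a median log2 fold change of 0.07 on the scale of log2(FPKM + 1). Nid1, the gene of nidogen 1, which links laminin to type IV collagen, rose from 58.1 to 102 FPKM, and the laminin chain gene Lamb3 rose from 0.362 to 0.901 FPKM. Agrn, the gene of the proteoglycan agrin, fell from 66.7 to 42.8 FPKM and Pxdn, the gene of the peroxidase that cross-links type IV collagen, from 16.1 to 9.69 FPKM.

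Of 17 other fibrous matrix genes tested, 3 were higher, 6 lower and 8 not called. That is 52.9% called and 35.3% lower, near the 57.9% and 29.0% of all tested measurements. Fbln2 and Fbln1, genes of fibulins, rose from 240 to 391 FPKM and from 15.8 to 26.5 FPKM, and Tnc, the gene of tenascin C, from 12.4 to 23.8 FPKM. Emilin1, the gene of an elastic fibre protein, fell from 24.3 to 6.71 FPKM, and Ltbp4 and Mfap2, genes of microfibril-associated proteins, fell 1.85-fold and 2.83-fold.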
